A study of Morella rubra with 12 samples.

Results

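This account covers 89 genes of 119701 in fruits of Chinese bayberry (Morella rubra). These genes had far scarcer transcripts at 55 days after flowering than at 70 days, and stayed close to the 70-day level in ripe fruit of the same strain. They were chosen from their mean FPKM (fragments scaled to gene length and to the fragments mapped in the library) plus 1 in each group. The value at 70 days had to be at least 21 and at least 5 times that at 55 days, with every 70-day library above every 55-day library. From 70 to 85 days the value had to stay above 0.5 times and below 2 times, and likewise between the ripe fruits of 2 kinds. No limit was set directly between the ripe fruit of the other kind and the 70-day fruit. These limits use the levels of all 4 groups, so the members' levels, ratios and calls below describe the genes and are not tests of them. Fold values are ratios of such means plus 1.

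RNA came from frozen fruits. The red-fruited cultivar Dongkui (DK, colour label black) was sampled at 85 days. The strain Baidongkui (BDK), pink-white in the series title and pink in the colour label, was sampled at 55, 70 and 85 days. Each of the 4 groups has 3 libraries, with nothing in the labels on the trees or fruits behind each. P-values therefore measure only how these libraries vary, which could be technical variation. Stages are numbered in the titles and were matched to days by the order in the series' design text. The gene IDs (c55127_g1 and so on) have the form given by de novo assembly of transcripts, in which the number after c marks a cluster of related contigs and the number after g a gene within it. No file used here pairs an ID with a name, so what the 89 genes encode was not analysed here.

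A fleshy fruit first grows by cell division and expansion and then ripens, when it loses chlorophyll and acidity, gathers sugars, softens and in many species makes red anthocyanin pigments. Many transcripts are scarce in green fruit and accumulate as ripening begins. Some of these decline again soon, and others stay abundant in the ripe fruit, the course that the present rule selects. In bulk fruit RNA, fewer cells of a type and less RNA per cell cannot be told apart.

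The files hold no read counts. Summed FPKM ran from 817744 to 1219278 per library, and 32084 to 48737 genes lay above 0. The number of reads behind them is unknown, but the spacing of low values gave depths relative to each other of 0.855 to 1.18. The libraries also fall into 2 sets, which split the BDK 70-day and 85-day groups and no other. BDK 55-day replicates 1 to 3, BDK 70-day replicate 1 and BDK 85-day replicates 1 and 2 shared 876 genes that were at 0 in the other 6 libraries, and the reverse held for 120 genes. All 3 DK libraries are in the second set, with 1 of the 3 ripe BDK libraries, so that DK against BDK largely coincides with the set. All 89 members passed the filter for testing (at least 1 FPKM in at least 3 libraries, 23074 genes), and 86 of them were above 0 in all 12 libraries. With BDK 70-day replicate 1 alone, 86 members kept a ratio of at least 5 over 55 days, and with replicates 2 and 3 alone 85 did. The median ratios were 8.25 and 8.37.

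Of the genes that came up by 70 days in BDK, fewer than 0.5 of the total met both later limits. These compare ripe BDK with 70 days, and ripe DK with ripe BDK. The limits on level and ratio at 70 days were met by 599 genes. Of these, 406 failed the demand that the libraries be apart, among them 358 listed above 0 in a single 70-day library and in no other library of the series. The other 193 genes were switched on by 70 days. By 85 days in BDK 55 of them had dropped to 0.5 times or less, 38 had reached 2 times or more and 100 lay between. In DK 7 of these 100 were at 2 times or more the ripe BDK value and 4 at 0.5 times or less, which left the 89 members.

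**Figure D1:**
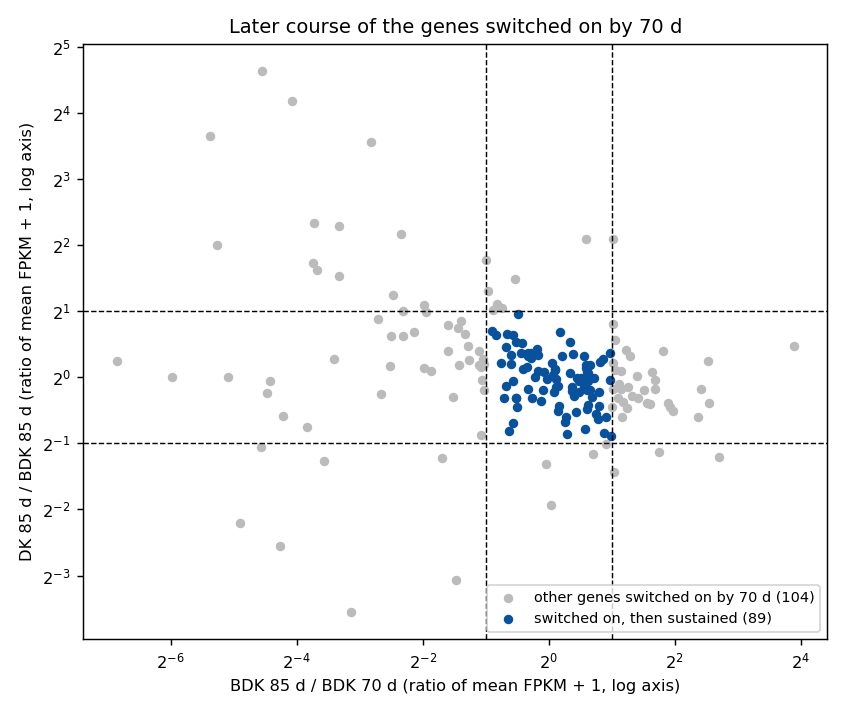
Each point is 1 of the 193 genes switched on by 70 days, by its ratio of 85 to 70 days in BDK (x, log axis) and of DK to BDK at 85 days (y, log axis), both of mean FPKM plus 1. The 89 sustained genes (blue) fill the square between the dashed limits of 0.5 and 2, and the other 104 (grey) lie outside it. Both ratios contain the BDK 85-day mean, so the slope of the cloud is not a result.

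The limits cut through a continuous spread of genes. At the level limit of 21, c53350_g1 lay inside with 21.7 and c52303_g3 outside with 20.5. The 5-fold limit fell between c54651_g1, at 5.10, and c30478_g1, at 4.9999. From 70 to 85 days c67073_g1 was kept at 0.535 and c56092_g4 lost at 0.490. At the upper end c34923_g1 was kept at 1.99 and c51028_g1 lost at 2.001. Between DK and BDK c34923_g1 again lay just inside, at 0.538, with c81288_g1 outside at 0.498. The upper limit there separated c46922_g1, at 1.93, from c43564_g1, at 2.02.

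The 89 genes were seldom silent in young fruit. At 55 days 86 of them were above 0 in all 3 libraries. 47 had a mean below 10 FPKM, 8 of these below 1, while 38 lay from 10 to 100 and 4 above 100. "Switched on" therefore stands for a steep rise, from a 55-day mean of up to 153 FPKM, and in nearly all of them not for a start from 0. One gene, c12674_g1, was listed at 0 in all 3 young libraries. Limma called all 89 higher at 70 than at 55 days, a comparison in which 23.0% of all tested genes were called higher and 28.1% lower. The rule fixed that outcome and nothing is read from it.

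**Figure D2:**
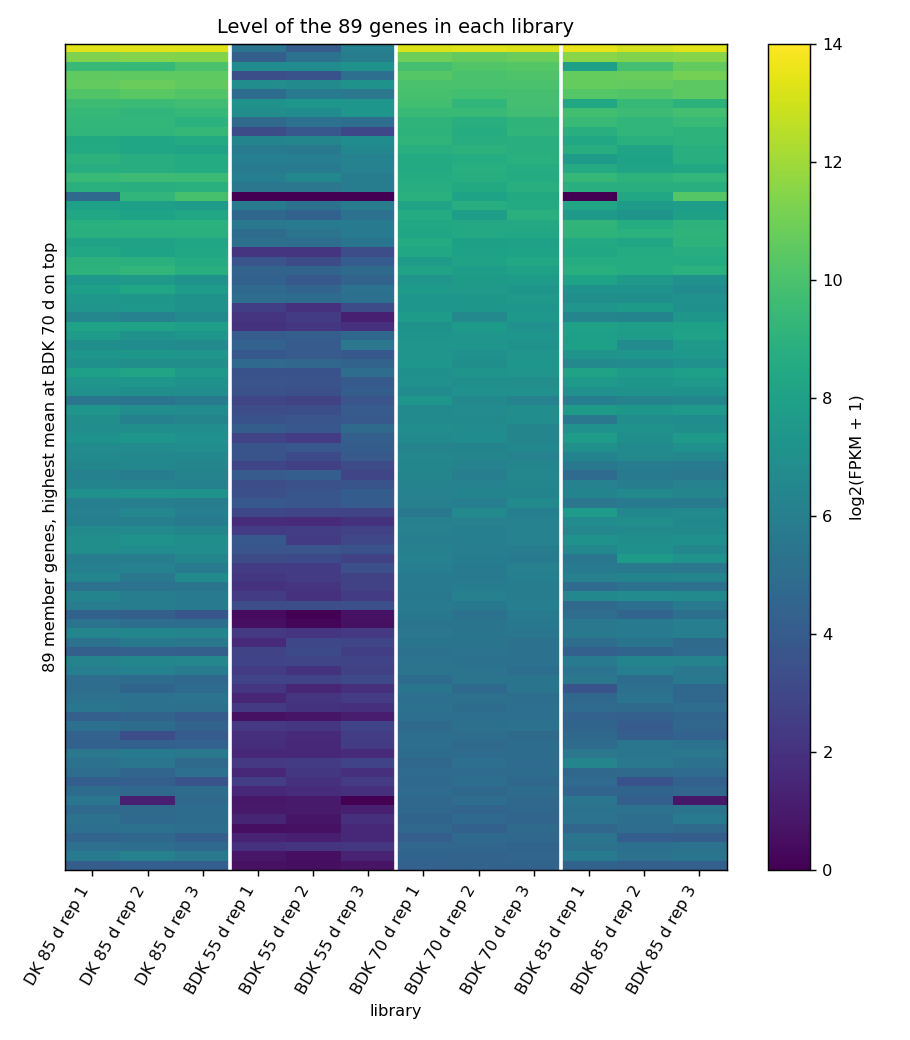
Rows are the 89 genes, ordered by mean FPKM at BDK 70 days, and columns the 12 libraries. Colour gives log2(FPKM + 1). In every row the 3 BDK 55-day columns are darker than the 70-day columns, and the columns after 55 days resemble each other apart from single cells such as c12674_g1, dark in BDK 85-day replicate 1.

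The size of the rise varied widely among the members. Its median was 8.41-fold, with the middle part of the members between 6.20-fold and 11.8-fold (quartiles). Over all genes tested the median ratio was 0.916. 59 members rose less than 10-fold, 30 at least 10-fold, 14 of these at least 20-fold and 6 at least 40-fold, counting c12674_g1, for which no fold is given because its 55-day libraries are listed at 0.

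Together the 89 genes went from a trace to a visible part of the fruit's transcripts. They held 3.46, 3.90 and 3.79% of the summed FPKM in the DK libraries. In BDK their share was 0.157, 0.164 and 0.184% at 55 days, 2.83, 2.69 and 2.84% at 70 days and 3.72, 3.61 and 4.10% at 85 days. The DK and BDK 85-day ranges overlap, and every 70-day library lies below every ripe one. The totals behind these shares differ, with summed FPKM of 1005812 to 1032727 at 70 days. In ripe fruit it was only 817744 to 882385 in BDK and 842518 to 922706 in DK. A smaller total raises a share, and its part in this difference was not tested. A single gene, c55127_g1, made up 32.4% of the members' FPKM in DK and 8.19%, 34.3% and 31.4% at the 3 BDK stages. Without it the shares of summed FPKM were 2.52% ± 0.161 in DK and 0.165% ± 0.0124, 1.83% ± 0.0993 and 2.62% ± 0.242 at BDK 55, 70 and 85 days (SD, n = 3). The median member mean was 95.9 FPKM in DK and 9.33, 81.3 and 111 FPKM over the BDK stages.

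**Figure D3:**
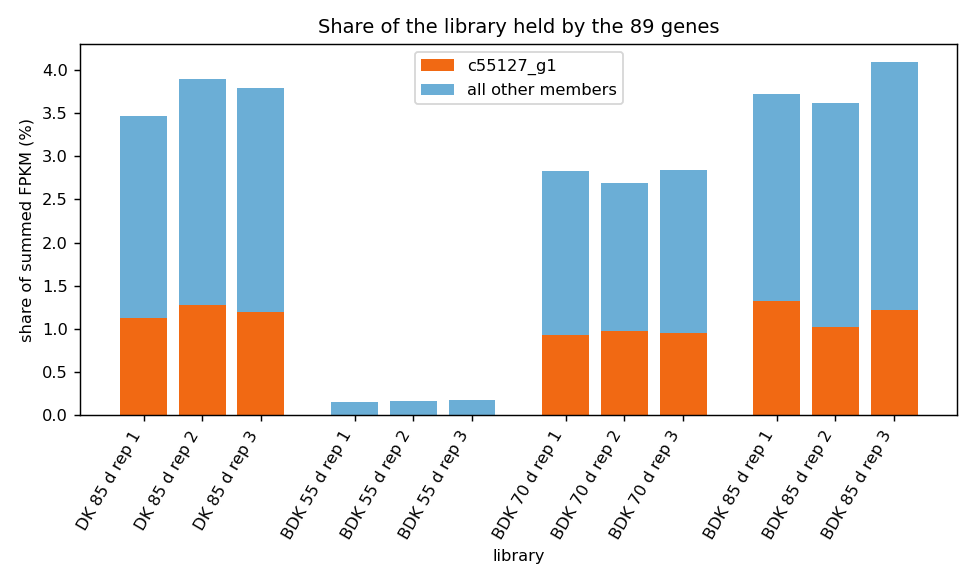
Bars give the percentage of each library's summed FPKM held by c55127_g1 (orange) and by all other members (blue). The 3 BDK 55-day bars reach 0.184% at most, the 70-day bars reach 2.69% to 2.84% and the ripe bars of both kinds 3.46% to 4.10%.

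Among the most abundant members, c55127_g1 was far ahead. It had 10448, 10791 and 10131 FPKM in the DK libraries. In BDK it had 41.2, 15.2 and 68.8 FPKM at 55 days, 9380.5, 10037 and 9896 at 70 days and 11717, 8417 and 10543 at 85 days. The ripe DK and ripe BDK values overlap, the 70-day values lie within the ripe BDK range, and the 70-day mean is 229-fold that at 55 days. By group mean it ranked 2 among all genes in DK, and 3618, 9 and 3 over the BDK stages. Next by level at 70 days came c50771_g1, with 1939, 1616 and 1773 FPKM at 70 days, against 18.1, 38.2 and 59.5 at 55 days. It stood higher again in all ripe libraries, at 2532, 2745 and 2609 in DK and 2880.3, 2562 and 2766 in BDK, a ratio of 1.54 for BDK 85 over 70 days.

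The third, c49102_g1, was unsteady in ripe fruit. It had 725, 672 and 1014 FPKM in DK and 249, 890.3 and 1593 in BDK at 85 days, so that the ripe BDK libraries alone enclose all of its 70-day values, 946, 1192 and 1288. At 55 days it was at 112, 113 and 146 FPKM. In contrast c53516_g2 was close to constant among the 70-day libraries, at 1006, 1009 and 1019 FPKM, against 114, 98.3 and 145 at 55 days. Its ripe libraries were higher, at 1567, 1809 and 1531 in DK and 1660.5, 1570.2 and 1396 in BDK. Gene c57100_g1 followed the same course at a lower level, with 1241 ± 116 FPKM in DK and 41.9 ± 10.8, 919 ± 40.5 and 1286 ± 123 over the BDK stages (SD, n = 3).

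**Figure D4:**
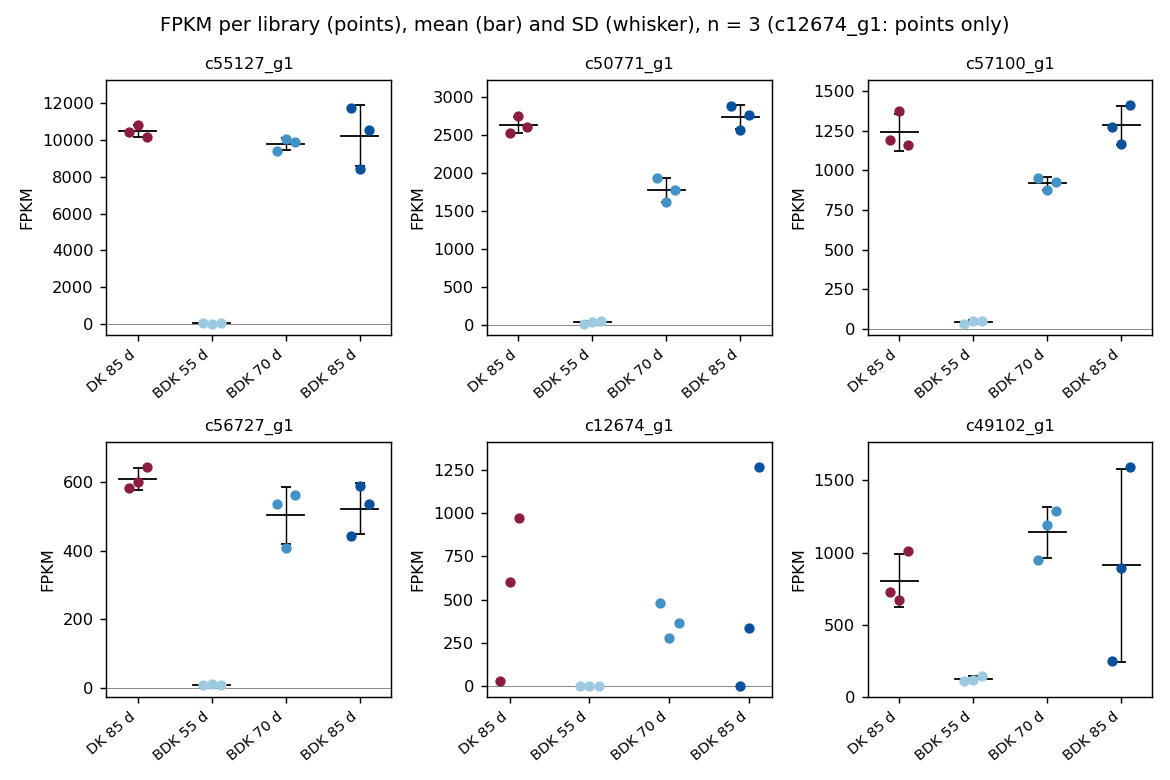
FPKM in each library (points) for 6 members, with the group mean (bar) and SD (whisker), n = 3, and points only for c12674_g1. In c55127_g1, c50771_g1, c57100_g1 and c56727_g1 all libraries of the other 3 groups lie far above those of 55 days. Genes c12674_g1 and c49102_g1 scatter widely in ripe fruit.

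The ratio of BDK 85 to 70 days was 0.798 for c49102_g1 and 0.63 for c49067_g1, and above 1 for the other 8 of the 10 most abundant members. Gene c49067_g1 had 336, 662 and 501 FPKM at BDK 85 days, against 876, 592 and 909.8 at 70 days, and 782, 746 and 825 in DK. The BDK 85-day and 70-day libraries overlap, whereas all DK libraries lie above all ripe BDK libraries. For c48881_g1 the order between the ripe fruits was the other way, at 645, 583 and 642 FPKM in DK and 861, 776 and 889.7 in BDK. Its BDK mean at 70 days was 754 ± 70.4, against 129 ± 29.3 at 55 days. Gene c56727_g1, with 537, 409 and 563 FPKM at 70 days and 8.12, 12.8 and 7.18 at 55 days, was among the steepest rises at 48.6-fold. Its ripe values, 584, 601 and 645 in DK and 443, 589.8 and 538 in BDK, overlap each other. The ripe BDK values also overlap those at 70 days, while the DK libraries lie above them. The remaining member of this rank, c43554_g1, rose 15.7-fold to 515 ± 64.2 FPKM at 70 days, against 31.8 ± 4.51 at 55 days (SD, n = 3).

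The steepest rises were found at several levels of abundance. Apart from c12674_g1, for which no fold is given, the largest ratio after that of c55127_g1 was the 60.3-fold of c54279_g1. That gene had 1249, 1016 and 1152 FPKM at 70 days and 9.44, 10.4 and 33.8 at 55 days. Gene c54279_g2 of the same cluster rose 45.6-fold, with 317, 253 and 280.4 FPKM at 70 days, against 3.33, 3.38 and 9.02 at 55 days. In both genes replicate 3 was the highest of the young libraries. Gene c12674_g1, at 0, 0 and 0 in the 55-day libraries, had 478, 279.5 and 363 FPKM at 70 days. It was then at 26.8, 602 and 971 in DK and 0, 337 and 1270.1 in BDK at 85 days. Each ripe group thus holds a library far below the 70-day values, at 0 in BDK. DK replicates 2 and 3 and BDK replicate 3 lie above those values, and BDK replicate 2 lies within them. "Sustained" therefore fits the group means of this gene but not its libraries.

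Within the limits set, the members stood on balance slightly higher at 85 than at 70 days in BDK. The ratio of 85 to 70 days ran from 0.535 to 1.99 with a median of 1.11, where the median over all genes tested was 0.888. It was above 1 for 53 members and below 1 for 36. Limma called 31 higher and 5 lower at 85 days and left 53 uncalled. The background was 17.4% of tested genes higher and 19.5% lower. The 5 lower calls became 1 without BDK 85-day replicate 1, and 3 without BDK 55-day replicate 1, BDK 70-day replicate 3, BDK 85-day replicate 2 or DK replicate 2. In the first library set alone, with 1 library at 70 days, 2 members were called higher and 0 lower, and calls over all genes also became few, at 822 higher and 993 lower of 19759 tested. Without scaling factors the members split into 25 higher and 11 lower, and that setting moved the median log2 change of all genes to -0.17, against -0.04 with factors. In FPKM as deposited the libraries did not overlap for 35 members that were higher at 85 days and 13 that were lower (background 15.0% and 33.2%). The rule used this step too, so these counts are given as description.

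At the upper edge of this range stood c34923_g1, whose ratio of 1.99 rests on 2 libraries. It had 44.3, 194 and 141 FPKM at 85 days, against 73.9, 59.8 and 55.8 at 70 days, so replicate 1 lies below the younger fruit. The next genes were even across libraries. Gene c56213_g4 had 143, 126 and 129 FPKM at 85 days, against 63.2, 65.2 and 71.8 at 70 days. For c55186_g3 the values were 50.9, 37.3 and 42.7 FPKM at 85 days and 22.1, 20.6 and 22.6 at 70 days, with 53.3, 67.2 and 48.4 in DK. Neither of these genes overlaps between the stages.

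At the lower edge c67073_g1 had 184, 148 and 246 FPKM at 85 days, against 384, 223 and 477 at 70 days, and c45579_g1 had 29.2, 52.4 and 47.8, against 83.1, 63.1 and 87.3. In the first of these the highest 85-day library exceeds the lowest 70-day library, and in c45579_g1 the stages are apart. Gene c50550_g2 was also apart between the stages, at 28.8, 37.1 and 36.2 FPKM at 85 days and 56.4, 57.7 and 59.6 at 70 days. All 3 genes had higher means in DK than in ripe BDK, at 313 ± 34.8, 67.8 ± 9.15 and 39.5 ± 1.95 FPKM in DK (SD, n = 3), a comparison that shares the BDK 85-day libraries. All their ripe libraries stayed above their 55-day libraries.

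Ripe red and ripe pale fruits carried the members at similar levels, as the rule requires within a factor of 2. The ratio of DK to BDK had a median of 0.985 and quartiles of 0.808 and 1.20. The ratio was between 0.8 and 1.25 for 51 members, above 1 for 41 and below 1 for 48. Limma called 5 higher and 6 lower in DK. The background was 3.53% of tested genes higher in DK and 3.05% lower. Leaving out DK replicate 1, 2 or 3 gave 2, 1 and 2 members higher and 2, 1 and 2 lower, while calls over all genes came to 367, 364 and 475 higher and 294, 276 and 356 lower, against 815 higher and 704 lower with every library. Without BDK 85-day replicate 1 there were 2 members higher and 3 lower (433 and 350 over all genes), and without replicate 3 there were 3 higher and 1 lower (544 and 569). Other omissions raised the counts, to 6 members higher without BDK 85-day replicate 2 (1178 over all genes) and 9 lower without BDK 55-day replicate 3 (870 over all genes). With the library set as a model term 1 member was higher and 2 were lower (298 and 240 over all genes). The DK and BDK libraries did not overlap for 34 members, 18 of them higher in DK and 16 lower, against 24.2% of the genes tested. Set beside both BDK stages, the DK mean lay between the 70-day and 85-day means for 39 members, above both for 28 and below both for 22. The rule does not compare DK with 70 days, and some members lay beyond 2-fold there. Among them were c48978_g1, with means of 16.4 FPKM in DK and 45.95 at 70 days, and c55186_g3, with 56.3 and 21.7.

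Among the members that stood highest in DK was c46922_g1, with 241, 306 and 215 FPKM in DK and 143, 142 and 108 in BDK at 85 days. All DK libraries also exceeded its BDK 70-day values, 196, 187 and 167. For c51312_g1 the DK libraries, at 131, 140.3 and 144, lay above every ripe BDK library, at 79.5, 98.1 and 81.0, and above the 70-day mean of 76.2 ± 2.51 FPKM (SD, n = 3). Between these genes by this ratio stood c67073_g1, described above.

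Lowest in DK relative to BDK was c34923_g1, with 59.6, 59.5 and 84.0 FPKM in DK. The BDK 85-day libraries given above enclose these values. Gene c49327_g2 was uniform within DK, at 19.6, 19.4 and 20.5 FPKM, and lay below all ripe BDK libraries, at 30.3, 44.0 and 36.1. For c45794_g1 the DK libraries, at 73.2 ± 13.4 FPKM (SD, n = 3), were all below the ripe BDK libraries, at 203, 93.0 and 102, of which replicate 1 was highest. Here the DK mean was near that of BDK 70 days, 71.5 ± 27.6 FPKM (SD, n = 3).

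Within each group after 55 days the median spread between replicates was wider for the members than for genes at or above the lowest member. That set was not matched to the levels of the members, and the difference was not tested. On the log2(FPKM + 1) scale the median SD over 3 libraries was 0.15 for the members and 0.10 for all genes tested at or above the lowest member in DK. In BDK at 70 days these were 0.14 and 0.11, and at 85 days 0.20 and 0.13. At 55 days, the base of the fold values, the members' median SD was the widest, at 0.29. The value beside it was 0.16, over all genes tested, as the lowest member was at 0 there. The widest spread at 70 days was that of c56328_g2, with 209, 93.8 and 179 FPKM, followed by c47586_g1, with 162, 95.4 and 73.1, and c67073_g1. At 55 days c56328_g2 had 3.51, 4.39 and 1.35 FPKM and c47586_g1 had 6.58, 5.86 and 11.8, so both rose far beyond this spread.

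In ripe fruit the widest spreads were those of c12674_g1, of c56507_g3 and, in BDK, of c49102_g1. Gene c56507_g3 had 43.4, 1.34 and 25.3 FPKM in DK and 44.0, 17.6 and 0.9 in BDK at 85 days, after 24.2, 31.0 and 24.6 at 70 days. Its DK replicate 2 and BDK replicate 3 are close to the 55-day values, 0.89, 1.02 and 0 FPKM. It was the 1 member that limma did not call higher at BDK 85 than at 55 days, a step in which 24.9% of all tested genes were higher and 31.2% lower. In DK c7269_g1 was next, with 86.1, 47.1 and 102 FPKM, all above its 55-day values of 3.85, 4.70 and 5.52. Over the members, all ripe BDK libraries exceeded all 55-day libraries for 87, the exceptions being c12674_g1 and c56507_g3, and all DK libraries did so for 89.

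The young libraries were not alike in the members. BDK 55-day replicate 3 was the highest of the 3 for 64 of the 89 members (71.9%), against 33.5% of all genes tested. The median ratio of replicate 3 to the mean of replicates 1 and 2 (FPKM + 1) was 1.27 over the members and 0.995 over all genes tested. The pattern was seen first in the members and then looked for elsewhere. Replicate 3 was also highest for 61 of the 104 other genes switched on by 70 days. It was lowest for 258 of 477 genes with the opposite course (at least 21 at 55 days, at least 5-fold lower at 70 days, libraries apart). Among these 477 it was highest for 145, and replicate 1 was highest for 204. How often replicate 3 was lowest over all genes tested was not computed. The rule uses both the mean and the highest of the 3 young libraries, and the part that this choice plays in the pattern was not tested. Without replicate 3 the median rise of the members was 9.43-fold, against 8.41-fold with it. Replicate 3 also had the highest summed FPKM and the most genes above 0 of the series, at 1219278 and 48737. The part that this or the sampling of the library plays was not tested either.

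The 89 genes came from 86 assembly clusters. 40 members (44.9%) share a cluster with at least 1 other gene, near the 45.8% of all genes tested. Genes of 1 cluster resemble each other and can divide reads, so their separate levels are uncertain. There were 3 clusters with 2 members each. In cluster c48740, c48740_g3 stayed at 11.4% to 15.3% of the FPKM of c48740_g1 in all 12 libraries, with 55.1 ± 7.86 and 419 ± 55.2 FPKM at 70 days (SD, n = 3). The other genes of this cluster, c48740_g2 and c48740_g4, were called higher too, with 9.66 ± 0.754 and 5.37 ± 1.28 FPKM at 70 days, against 2.52 ± 0.623 and 1.49 ± 0.398 at 55 days (limma's adjusted p of 6.91e-05 and 0.0022). In cluster c53356 the genes were at 33.4 ± 1.73 (c53356_g1) and 41.0 ± 2.18 FPKM (c53356_g2) at 70 days, against 3.23 ± 1.35 and 5.37 ± 2.63 at 55 days. In cluster c54279, c54279_g2 was at 24.3% to 25.4% of c54279_g1 at 70 days, against 26.7% to 35.3% at 55 days, and at 18.8% to 22.4% in DK and 19.4% to 22.3% in BDK at 85 days. The 55-day and 70-day percentages of this pair do not overlap, nor do those of the 70-day and ripe libraries.

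The other genes of the members' clusters, here called partners, are those that did not meet the rule, and 78 of 108 could be tested. Cluster genes that met it, as in the 3 clusters with 2 members, are left out by this definition. The counts therefore describe only the rest. From 55 to 70 days 26 partners (33.3%) were called higher, 21 (26.9%) lower and 31 neither, against 23.0% higher and 28.1% lower over all genes tested. Of the 33 members with a tested partner, 13 had one that fell and 19 one that rose. A member with several partners has more ways to be counted. The matching share over all genes was not computed, so nothing is read from these counts. At 70 days 11 of these 33 members had a partner of higher mean FPKM, and at 55 days 24 did. The rule required the members to rise at this step, so nothing is read from that change.

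Named here are the 4 partners with the largest called change in each direction among those of at least 10 FPKM at either stage, a rule made after their values were seen. The steepest fall was c53109_g1, with 18.6, 17.6 and 21.2 FPKM at 70 days, against 136, 93.5 and 198 at 55 days. Its log2 change was -2.72 ± 0.42 (SE), with limma's adjusted p of 3.54e-04. The member of that cluster, c53109_g2, had 42.3, 26.2 and 40.4 FPKM at 70 days, against 3.67, 1.83 and 2.91 at 55 days. The order of both genes thus turned round between the stages in every library. Likewise c57010_g1 fell by 1.36 ± 0.11 on the log2 scale to 14.6 ± 0.956 FPKM at 70 days, against 40.6 ± 2.25 at 55 days (adjusted p = 3.93e-06). Beside it the member c57010_g5 was at 24.3 ± 1.30 FPKM at 70 days, against 1.09 ± 0.227 at 55 days (SD, n = 3). Another partner in this cluster, c57010_g6, rose as well, to 9.16 ± 1.94 FPKM at 70 days, against 0.123 ± 0.0643 at 55 days. It stayed below the 10 FPKM set for naming.

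The other named falls were c55970_g7, partner of c55970_g8, and c54833_g1, partner of c54833_g9. They had 55.9 ± 9.99 and 43.9 ± 0.612 FPKM at 70 days, against 136 ± 12.1 and 81.1 ± 14.6 at 55 days, with log2 changes of -1.23 ± 0.19 and -0.80 ± 0.11 (SE) and limma's adjusted p of 2.75e-04 and 1.32e-04. At 55 days c55970_g7 was the higher gene of its pair, with c55970_g8 at 2.60 ± 0.481 FPKM, and at 70 days c55970_g8 was at 71.2 ± 3.17 (SD, n = 3). In the cluster of c54833_g1 another partner, c54833_g2, rose instead, to 71.1 ± 0.707 FPKM at 70 days, against 30.05 ± 2.92 at 55 days.

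Partners that rose with their member included c56973_g2, with 31.9, 34.5 and 30.3 FPKM at 70 days, against 1.84, 1.97 and 3.41 at 55 days. It reached 67.7, 70.5 and 82.7 in DK and 67.4, 68.4 and 69.1 in BDK at 85 days, just beyond the 2-fold limit that its partner c56973_g1 met. Gene c52903_g3, partner of c52903_g2, had 12.7, 16.2 and 16.1 FPKM at 70 days, against 0.63, 0 and 1.25 at 55 days. The other 2 were c35760_g1, partner of c35760_g2, at 68.5 ± 2.63 FPKM at 70 days, against 13.2 ± 5.91 at 55 days, and c55014_g7, partner of c55014_g12, at 94.0 ± 4.35, against 21.2 ± 1.55 (SD, n = 3). The log2 changes of these rises were 3.33 ± 0.16, 3.33 ± 0.28, 2.40 ± 0.31 and 2.14 ± 0.10 (SE) in the order named, and limma's adjusted p were 1.20e-07, 4.72e-06, 1.07e-04 and 1.10e-07.

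**Figure D5:**
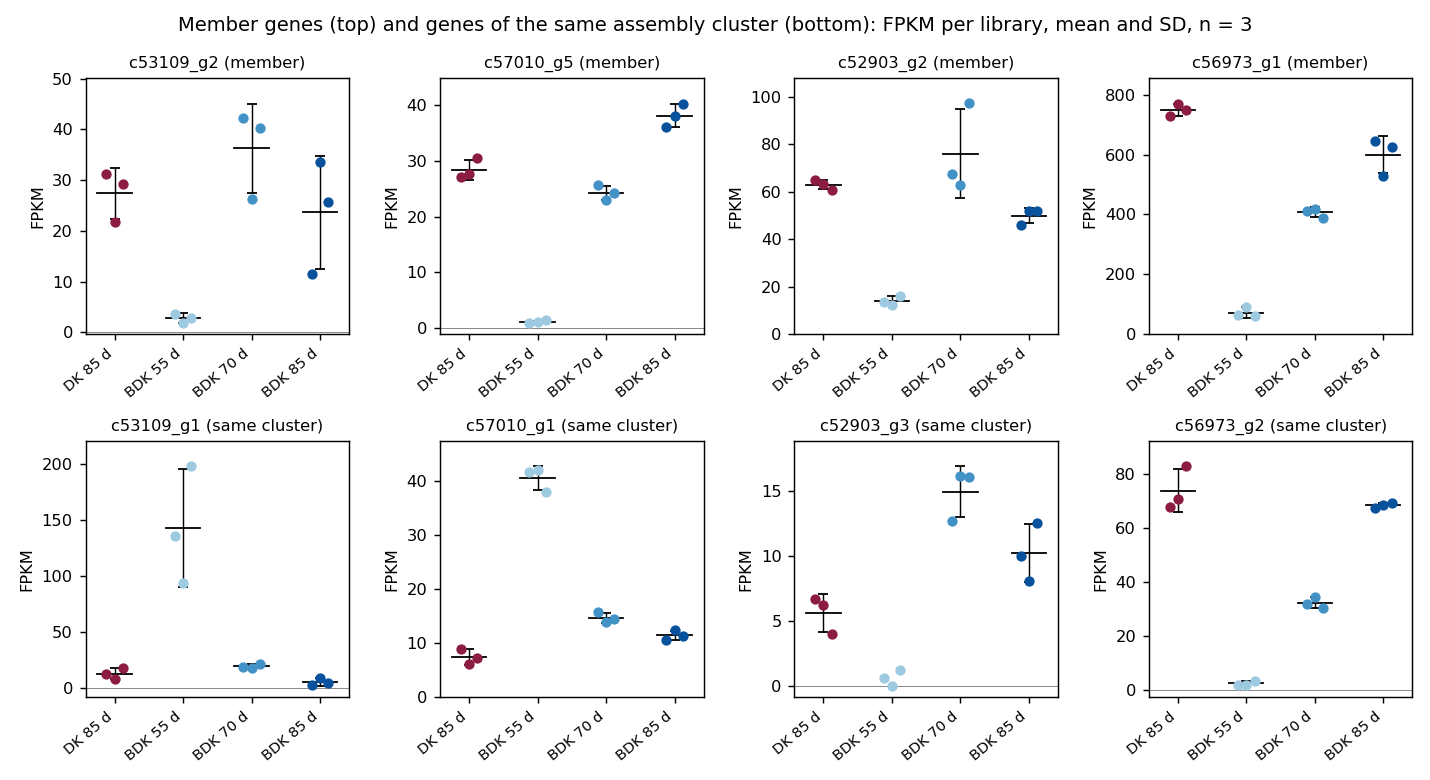
FPKM per library (points) with mean (bar) and SD (whisker, n = 3) for 4 members (top) and a partner from the same assembly cluster (bottom), with no mean for c52903_g3 at 55 days, where a library is at 0. Partners c53109_g1 and c57010_g1 are highest at 55 days while their members are lowest there, and c52903_g3 and c56973_g2 are lowest at 55 days, as their members are.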

How the data were processed

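RNA was sequenced from frozen fruits after Trizol extraction, on Illumina libraries, per the labels' protocols. Titles gave group and replicate, and the design text gave days. The deposited tables hold, per the file headers, FPKM for each gene, to 2 decimals, and no counts, so no count test was run. How reads were assembled, aligned, counted and filtered is not given in the sources used here. Values are relative within a library.

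Levels, ratios, shares and membership use FPKM as deposited. Calls come from limma 3.58.1 in R 4.3.3 on log2(FPKM / factor + 1), a scale that understates the change of low genes, with variances that follow the mean level. Trimmed-mean factors (trimming at each end 30% of the genes by log ratio and 5% by level) ran from 0.898 to 1.11. All 12 libraries and 4 groups entered 1 model over 23074 genes that reached 1 FPKM in 3 or more libraries, without covariates. Benjamini-Hochberg adjusted p below 0.05 counts as called. The procedure was tested on simulated data. Tables were handled in Python 3.11.15.

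Members and lists were chosen with earlier results of these data known. Named members are those highest at 70 days (10), with the largest rises (5), at 0 in young fruit (up to 5, of which 1 exists), at both ends of each later ratio (3 each), with the widest spread at 70 days and in each ripe group (3 each), in shared clusters (the 5 highest, of which 3 exist) and next to each limit. No 2 libraries were copies, with at most 11.9% of tested values equal in a pair. Alternatives were other scalings, filters, pseudocounts and limits, a replicate block, the library set, a fit of the compared groups by themselves, and leaving out each library.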

Additional observations from a re-analysis of the deposited data

How the results depend on the processing

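The number of members was 84 to 104 when 1 library was left out, 61 to 113 under other scalings, pseudocounts and level limits and with overlap allowed, and 138, 30, 48 and 134 with a fold limit of 4, of 10, a plateau within 1.5-fold and within 3-fold. With BDK means from the first or the second library set alone, chosen after the data were seen, it was 101 and 90, of which 78 and 77 were among the 89. The median log2 change of the members was 3.14 from 55 to 70 days and 3.45 from 55 to 85 days, and with a pseudocount of 0.1 or 5 it was 3.38 or 2.60 and 3.66 or 2.82. Without scaling factors it was 3.23 for 85 against 55 days, and 0.14, against 0.32 with them, for 85 against 70 days, where the second set alone gave 0.42. Members called lower at 85 than at 70 days numbered 5, but 11 without scaling factors, 1 with no filter, 3 with a pseudocount of 0.1 or the library set as a term, 1 to 6 with 1 library left out (1 without BDK 85-day replicate 1), 0 in the first set alone and 2 in the second. The first set has a lone 70-day library and the second a lone BDK 85-day library, each taken to vary as the other groups do. Those called higher numbered 31, 25 to 43 with 1 library left out and 2 in the first set alone. In DK 5 members were called higher and 6 lower, but 1 and 1 with no filter, 1 and 2 where the library set was a term, 1 to 6 and 1 to 9 with 1 library left out. Lower calls were 2 with a pseudocount of 0.1 and 2 with only the 2 groups compared, and higher calls were 1 in the second set alone, again with 1 BDK 85-day library. The median log2 difference, -0.03, was -0.09 with the set as a term and -0.09 in the second set alone, and turned to 0.02 and 0.01 without BDK 85-day replicates 1 and 3. Without c55127_g1 the members' share of summed FPKM was 2.52% in DK and 1.83% and 2.62% at BDK 70 and 85 days, and with a level limit of 51 it was 2.70% at 70 days. Partners called lower at 70 days numbered 21, and 9 in the first set alone. The cause of these shifts was not tested. Same-numbered libraries deviated together in only 2 of 18 pairs (r above 0.1, range -0.15 to 0.17). Between libraries of different numbers r ran from -0.22 to 0.25. With 3 libraries per group this cannot decide whether the numbers pair trees or fruits. With the replicate block 89 members were called higher from 55 to 70 days, 31 higher and 6 lower from 70 to 85, and 6 higher and 5 lower in DK. Depth is unknown, so low FPKM carry an error that cannot be given.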
